A study of Mus musculus with 8 samples.

Results

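Acetylated histone H4, a chromatin mark of active promoters and enhancers, was examined at 8 genes that macrophages use to hold, move or withhold iron. The genes were Lcn2, Slc40a1, Hamp, Slc11a1, Slc11a2, Tfrc, Fth1 and Hmox1, taken by symbol from 21883 protein-coding genes with a window. The cells were bone marrow derived macrophages (BMDM) of genotype C57BL/6, and chromatin was precipitated with a polyclonal antibody to acetyl-H4. The groups were PAM3CSK4 (PAM3, a synthetic lipopeptide ligand of Toll-like receptors), 25-hydroxycholesterol (25HC, an oxysterol) then PAM3, 25HC alone, and untreated cells. Mice A and B each gave 1 library to every group, which makes 8 libraries in 4 groups. The stimulation time on the labels, which carry no unit, is 18 wherever PAM3 was given and 0 elsewhere, so PAM3 and that time cannot be told apart. Doses, the length of the 25HC treatment and the age of the mice are not stated in the labels.

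Macrophages take up iron on transferrin and from the haem of engulfed red cells, store it in ferritin and release it through ferroportin, the product of Slc40a1 and the only known cellular iron exporter. Hepcidin, the product of Hamp, is a peptide made mainly by the liver that binds ferroportin and has it degraded. During infection, lipocalin 2, the product of Lcn2, binds bacterial siderophores and so denies microbes iron, and the Slc11a1 protein pumps divalent metals out of the phagosome. C57BL/6 mice carry an Slc11a1 allele whose protein does not function, which limits these cells as a model for that gene.

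Acetylation is given as called length, the number of bp of a library's deposited peaks inside the gene body or within 5 kb of it, in GRCm38 coordinates. The lists held 48446 to 54552 peaks a library and covered 56.6 to 72.4 Mb, with PAM3 A the lowest and PAM3 B the highest. No read counts were used, so the depth behind a peak is unknown, and called length measures how far a mark extends and not how strong it is. For tests, 500 bp was added to each called length before taking log2, which shrinks the changes of short windows, and 14586 genes with enough called length were fitted with limma. A gene passed, and is said to have risen or fallen, at an adjusted p under 0.05. All 8 macrophage marker genes, among them Csf1r, Adgre1 and Spi1, had peaks in every group, and they did not move together: Adgre1 had 13703 to 21938 bp with PAM3 and 3247 to 5210 bp without, and Csf1r 5178 to 8142 bp with PAM3 and 8648 to 11021 bp without. Their summed called length was 66563 to 91515 bp in PAM3 cells, 70355 to 81348 bp in 25HC then PAM3 cells, 60392 to 68479 bp in 25HC cells and 61719 to 72142 bp in untreated cells. Each library is bulk chromatin, so a change in the mix of cells and a change within the cells cannot be told apart.

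Around Lcn2 (chromosome 2, 32384637 to 32387739), an acetylation peak was called over the gene's start in every library with PAM3 and in none without. The called length was 3670 and 4105 bp in PAM3 cells (mice A and B), 4045 and 4015 bp in 25HC then PAM3 cells, 1140 and 1346 bp in 25HC cells and 1346 and 1337 bp in untreated cells. The 4 libraries with PAM3 lay far above the 4 without, and the groups did not overlap. The window held 2 peak regions. The region over the start (32386736 to 32389863) was called over 2714 and 3013 bp in PAM3 cells, over 3081 and 2997 bp in 25HC then PAM3 cells, and in neither library of 25HC or untreated cells. Its 4 peaks were of similar length. The authors' fold enrichment of these peaks was 2.11 and 1.78 in PAM3 cells and 2.08 and 2.07 in 25HC then PAM3 cells, between the 61.4th and 73.9th percentile of their libraries' peaks. The Lcn2 peak called only in libraries with PAM3 thus stood in the upper middle of each of their lists by fold enrichment. The second region (32381272 to 32382635) was called in all 8 libraries, over 956 to 1346 bp, and spans the end of the neighbouring gene 1110008P14Rik at 32381915.

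The promoter table of RefSeq (GRCm38.p6) let the start of a gene be followed base by base, and 5 of the 8 genes, with 7 promoters of 300 bases each, were in it. Slc40a1, Slc11a2 and Hmox1 were not. The Lcn2 promoter lay wholly inside a peak, 300 of 300 bases, in each of the 4 libraries with PAM3, and had 0 bases in a peak in each of the 4 without. This all-or-none pattern was shared by 35 of 32851 tabled promoters (0.107%), which belong to 34 genes, and the opposite one was found at 31 (0.0944%). Among the others were Acod1, the itaconate-producing enzyme, Camp, the cathelicidin precursor, and Tnf, the cytokine tumour necrosis factor. These were picked from a mixed list that also holds Top1, Gna12, Pycr1, Zfp811 and predicted genes. Of the 34 genes, 23 are protein-coding. The Fth1 promoter shown here and both Tfrc promoters were covered over all 300 bases in all 8 libraries, as were 25.9% of all tabled promoters. The Hamp promoter had 0 bases in a peak in every library, as did 54% of all. The Slc11a1 promoter was partly covered, over 24 to 92 bases with PAM3 and 95 to 106 without, and a second tabled Fth1 promoter was covered in PAM3 B (300 bases) and untreated A (247 bases) alone. The following 250 bases before the start are shown because they stand for these 3 states: absent without PAM3 and full with it (Lcn2, minus strand, chr2:32387740-32387989), always full (Fth1, plus strand, chr19:9982396-9982645, and Tfrc, plus strand, chr16:32608646-32608895) and always empty (Hamp, minus strand, chr7:30944030-30944279). Capitals mark matches to C/EBP (TTGCNNAA) in Lcn2 and Fth1 and to AP-1 (TGANTCA) in Hamp, read on both strands.
Lcn2: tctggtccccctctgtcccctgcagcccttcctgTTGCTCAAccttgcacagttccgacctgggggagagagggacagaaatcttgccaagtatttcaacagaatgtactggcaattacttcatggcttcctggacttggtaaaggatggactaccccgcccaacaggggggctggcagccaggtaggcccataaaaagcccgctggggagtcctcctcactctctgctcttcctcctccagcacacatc
Fth1: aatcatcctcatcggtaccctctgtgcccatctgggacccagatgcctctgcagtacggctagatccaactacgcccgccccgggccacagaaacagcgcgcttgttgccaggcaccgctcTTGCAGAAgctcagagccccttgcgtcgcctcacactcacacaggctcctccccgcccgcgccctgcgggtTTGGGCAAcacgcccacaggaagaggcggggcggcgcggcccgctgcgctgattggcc
Tfrc: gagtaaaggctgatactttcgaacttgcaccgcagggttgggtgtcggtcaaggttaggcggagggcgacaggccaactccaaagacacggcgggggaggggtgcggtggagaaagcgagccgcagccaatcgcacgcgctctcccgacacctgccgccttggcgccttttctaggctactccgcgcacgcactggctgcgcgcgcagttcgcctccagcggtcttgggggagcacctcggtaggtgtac
Hamp: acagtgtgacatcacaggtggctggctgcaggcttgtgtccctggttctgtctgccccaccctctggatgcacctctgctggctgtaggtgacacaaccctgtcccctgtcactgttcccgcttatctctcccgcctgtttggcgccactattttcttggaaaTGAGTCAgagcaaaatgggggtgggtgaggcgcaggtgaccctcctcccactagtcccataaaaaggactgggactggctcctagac

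The Lcn2 promoter held 1 C/EBP match, TTGCTCAA, 216 to 209 bases before the start. Fth1 held 2, TTGCAGAA at 129 to 122 and, on the opposite strand, TTGGGCAA at 58 to 51 bases before the start. Such a match is found in 10.8% of the 32851 promoters of 300 bases. Hamp held the AP-1 match TGAGTCA 87 to 81 bases before the start, which reads as AP-1 on either strand and is found in 7.81%. The 300-base Lcn2 window held no match to AP-1, to the NF-κB motif (in 8.46% of promoters) or to the antioxidant response element core TGACNNNGC (in 12.4%). The core of the hypoxia response element, ACGTG or GCGTG, was matched in Slc11a1, Tfrc and Fth1 and in 43.8% of all promoters. These are matches of letters and not measured binding sites.

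**Figure D1:**
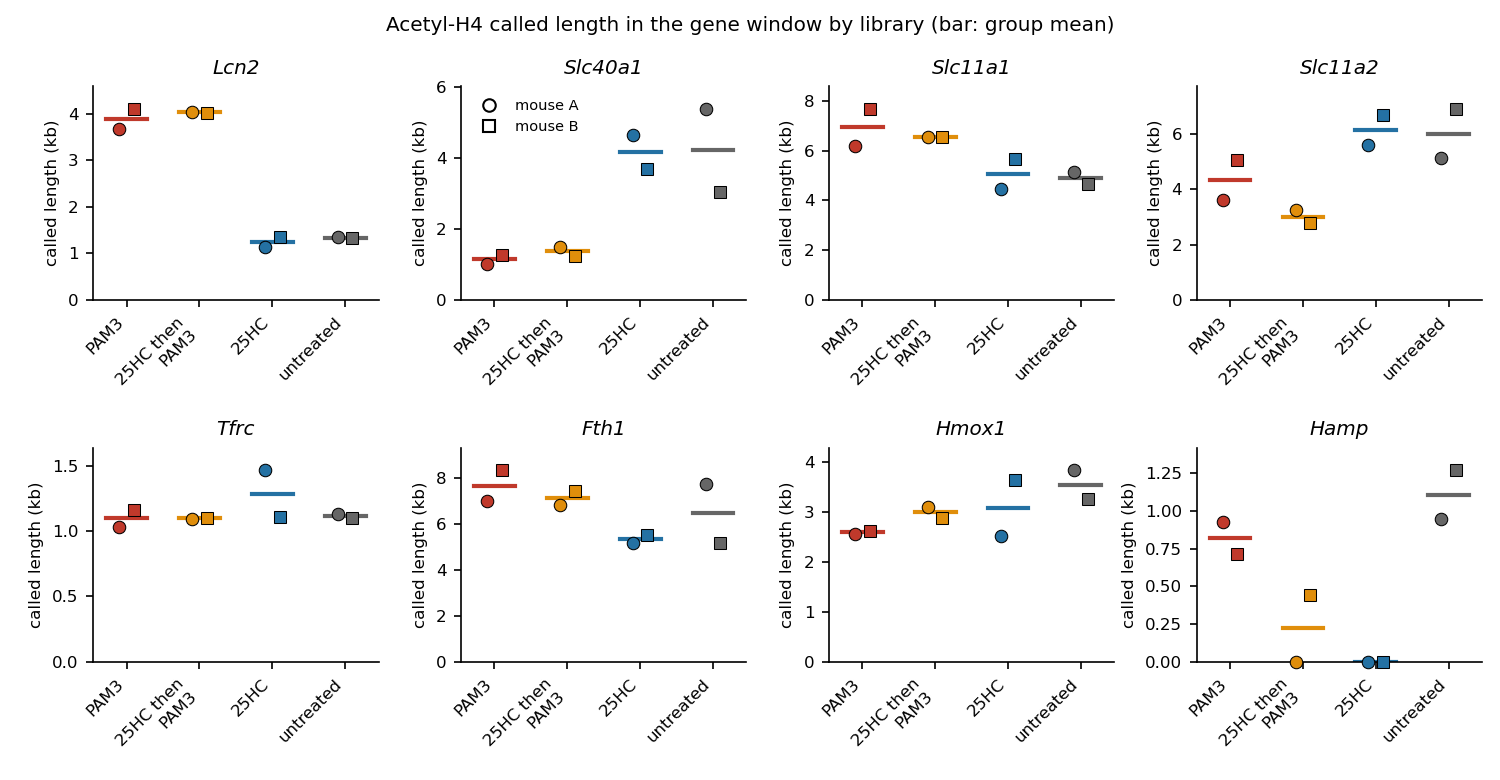
Called length of acetyl-H4 (kb, linear axes from 0) in the window of each gene, with 1 point per library (circle mouse A, square mouse B) and a bar at the group mean. Lcn2 and Slc11a1 lie higher and Slc40a1 and Slc11a2 lower in all 4 libraries with PAM3 than in the 4 without, and Hamp is at 0 in 3 of the 4 libraries with 25HC.

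Slc40a1, the ferroportin gene (chromosome 1, 45908070 to 45926532), went the other way. Its called length was 1027 and 1258 bp in PAM3 cells, 1488 and 1244 bp in 25HC then PAM3 cells, 4653 and 3697 bp in 25HC cells and 5376 and 3053 bp in untreated cells. Every library with PAM3 was below every library without, and untreated A and B stood well apart. Much of the difference lay outside the gene, in a region past its lower-coordinate end (45903448 to 45906727). This region had no peak in any library with PAM3, and was called over 3113 and 2302 bp in 25HC cells and 2132 and 1522 bp in untreated cells. The authors' fold enrichment of these peaks was 1.09 and 1.49 in 25HC cells and 1.46 and 2.74 in untreated cells, so the longest was the weakest. By fold, the peak of 25HC A lay at the 4.3th percentile of its library's peaks and that of untreated B at the 82.3th. Further inside the gene, untreated A alone had a peak of 1119 bp and 25HC then PAM3 A alone had one of 246 bp. Another region there (45918367 to 45919089) was called in 25HC A (225 bp), untreated A (723 bp) and untreated B (209 bp), and in no library with PAM3. By contrast, the peak at the upper-coordinate end (45925086 to 45926536) was called in all 8 libraries, over 1027 to 1258 bp with PAM3 and 1315 to 1402 bp without. Acetylation was thus retained at that end of Slc40a1 and not called past the other.

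Slc11a1 (chromosome 1, 74375014 to 74386057), which encodes a divalent-metal transporter of the phagosome membrane, had 6191 and 7677 bp in PAM3 cells, 6532 and 6558 bp in 25HC then PAM3 cells, 4455 and 5677 bp in 25HC cells and 5138 and 4655 bp in untreated cells. The libraries with PAM3 were the 4 highest. A peak inside the gene (74380107 to 74382483) was called over 1586 and 2377 bp in PAM3 cells and 1660 and 1641 bp in 25HC then PAM3 cells, and in no library without PAM3. Its fold enrichment was 1.97 and 1.71 in PAM3 cells and 1.74 and 1.21 in 25HC then PAM3 cells, the last at the 18.2th percentile of its library's peaks. The peak just inside the start (74375147 to 74377700) was called in all 8 libraries over 2113 to 2548 bp. A peak at the edge of the window over the end of Catip (74367730 to 74370406) was missing from both 25HC then PAM3 libraries and present in the other 6.

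Slc11a2 (chromosome 15, 100387898 to 100424209), the divalent metal transporter that brings iron into the cytosol, had 3630 and 5070 bp in PAM3 cells, 3254 and 2772 bp in 25HC then PAM3 cells, 5616 and 6683 bp in 25HC cells and 5122 and 6907 bp in untreated cells. The libraries with PAM3 were the 4 lowest, with PAM3 B just under untreated A. Inside the gene, a region at 100410112 to 100411642 had no peak in the 4 libraries with PAM3 and 966 and 1370 bp in 25HC cells and 1238 and 928 bp in untreated cells. The fold enrichment of these peaks was 1.03 and 2.43 in 25HC cells and 1.36 and 1.40 in untreated cells. By fold, the peak of 25HC A lay at the 1.15th percentile of its library's peaks. A second region inside the gene (100402494 to 100404269) had 0 and 928 bp in PAM3 cells, 0 in both 25HC then PAM3 libraries, 1488 and 1159 bp in 25HC cells and 1276 and 1710 bp in untreated cells. PAM3 B alone kept this second peak among the libraries with PAM3. The large region at the upper-coordinate end of the gene was called in all 8 libraries over 2469 to 4269 bp.

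**Figure D2:**
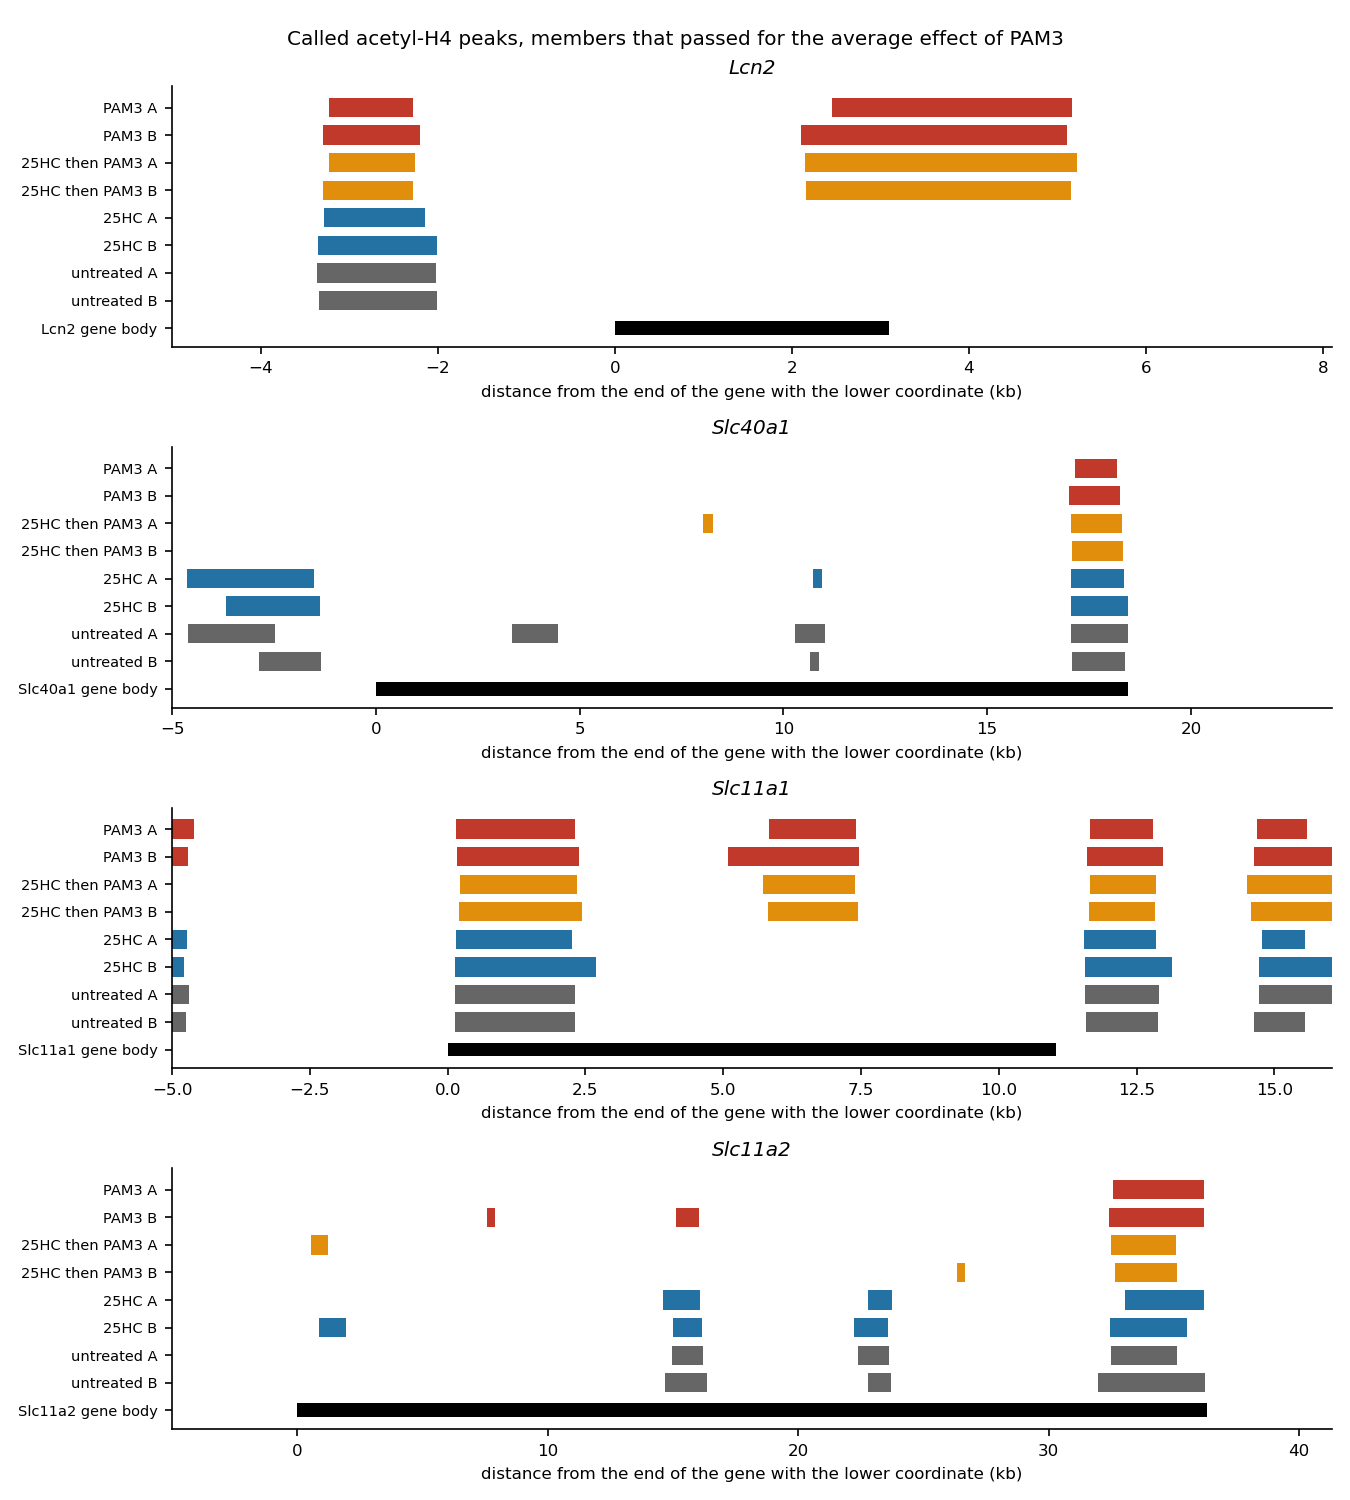
Called peaks of the 8 libraries in the windows of Lcn2, Slc40a1, Slc11a1 and Slc11a2 (bars), with the gene body in black and the distance from the gene's lower-coordinate end in kb on the x axis. Lcn2 and Slc11a1 each show 1 region present in the 4 libraries with PAM3 only, and Slc40a1 and Slc11a2 each show 1 present in the 4 without only, beside regions present in all 8.

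Over the 8 genes, 139 peaks fell into 25 regions when overlapping peaks were joined. Of these, 11 regions were called in all 8 libraries, 2 in all 4 libraries with PAM3 and none without (1 each in Lcn2 and Slc11a1), and 2 in none with PAM3 and all 4 without (1 each in Slc40a1 and Slc11a2). Another 4 were called in a single library and 6 had other patterns. Of all 83297 regions on the chromosomes used, 29.8% were in all 8 libraries, 1.68% in all 4 with PAM3 only, 1.63% in all 4 without only and 22.4% in a single library.

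Tfrc (chromosome 16, 32608896 to 32632794), the transferrin receptor gene, had a single peak over its start in every library. It covered 1036 and 1168 bp in PAM3 cells, 1096 and 1106 bp in 25HC then PAM3 cells, 1469 and 1110 bp in 25HC cells and 1135 and 1100 bp in untreated cells. The groups overlapped, and only 25HC A stood above the rest.

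Fth1 (chromosome 19, 9980600 to 9985111), the gene of the ferritin heavy chain that oxidises and stores iron, had 6983 and 8330 bp in PAM3 cells, 6812 and 7433 bp in 25HC then PAM3 cells, 5173 and 5514 bp in 25HC cells and 7732 and 5186 bp in untreated cells. Untreated A lay among the libraries with PAM3, so the groups overlapped. The libraries differed mostly before the lower-coordinate end of the gene. An interval of 1801 bp there (9976100 to 9977900), picked after the peaks were seen, was covered over all 1801 bp in each of the 4 libraries with PAM3, over 0 bp in both 25HC libraries and over 685 and 0 bp in untreated cells. With PAM3 a single long peak took the place of 2 separate ones. The window also reaches Best1, which starts 61 bp past the upper end of Fth1.

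Hmox1 (chromosome 8, 75093618 to 75100593), which encodes the inducible haem-degrading enzyme haem oxygenase, had 2570 and 2612 bp in PAM3 cells, 3105 and 2880 bp in 25HC then PAM3 cells, 2517 and 3654 bp in 25HC cells and 3837 and 3255 bp in untreated cells. The values overlapped between groups. The peak over the lower-coordinate end (75092764 to 75094198) was called in all 8 libraries, over 1134 to 1425 bp with PAM3 and 1342 to 1389 bp without.

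Hamp (chromosome 7, 30942368 to 30944029) had 927 and 717 bp in PAM3 cells, 0 and 440 bp in 25HC then PAM3 cells, 0 bp in both 25HC libraries and 948 and 1269 bp in untreated cells. Hamp was the gene whose libraries separated by 25HC, at 110 ± 220 bp (SD, n = 4) with 25HC and 965 ± 228 bp (SD, n = 4) without, and the values did not overlap. Across the genes tested, 1.89% were lower in this way. Hamp averaged 538 bp over all libraries and passed the 500 bp minimum only through the libraries without 25HC, so its separation is a description and is not to be read against that share. The peaks lay over the gene body, with 3 of the 5 reaching a little past its lower-coordinate end, and the peak of 25HC then PAM3 B did not reach the stretch covered in PAM3 cells. Neither the comparison of 25HC with untreated cells (limma adjusted p = 0.677) nor that of 25HC then PAM3 with PAM3 cells (log2 −0.95, limma adjusted p = 0.343) passed for Hamp. With both 25HC libraries at 0, no fold change is given for the first of these. The summed called length of 5 hepatocyte markers was 0 to 249 bp in PAM3 cells, 0 in 25HC then PAM3 cells, 273 to 375 bp in 25HC cells and 589 to 1194 bp in untreated cells, with Alb, Ttr, Serpina1a and Apob at 0 in all 8 libraries. Its part in the Hamp values was not tested. Hamp2, a related gene on the same chromosome, had 368 to 1070 bp, and the placement of any reads that match both genes is not given in the sources used here.

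**Figure D3:**
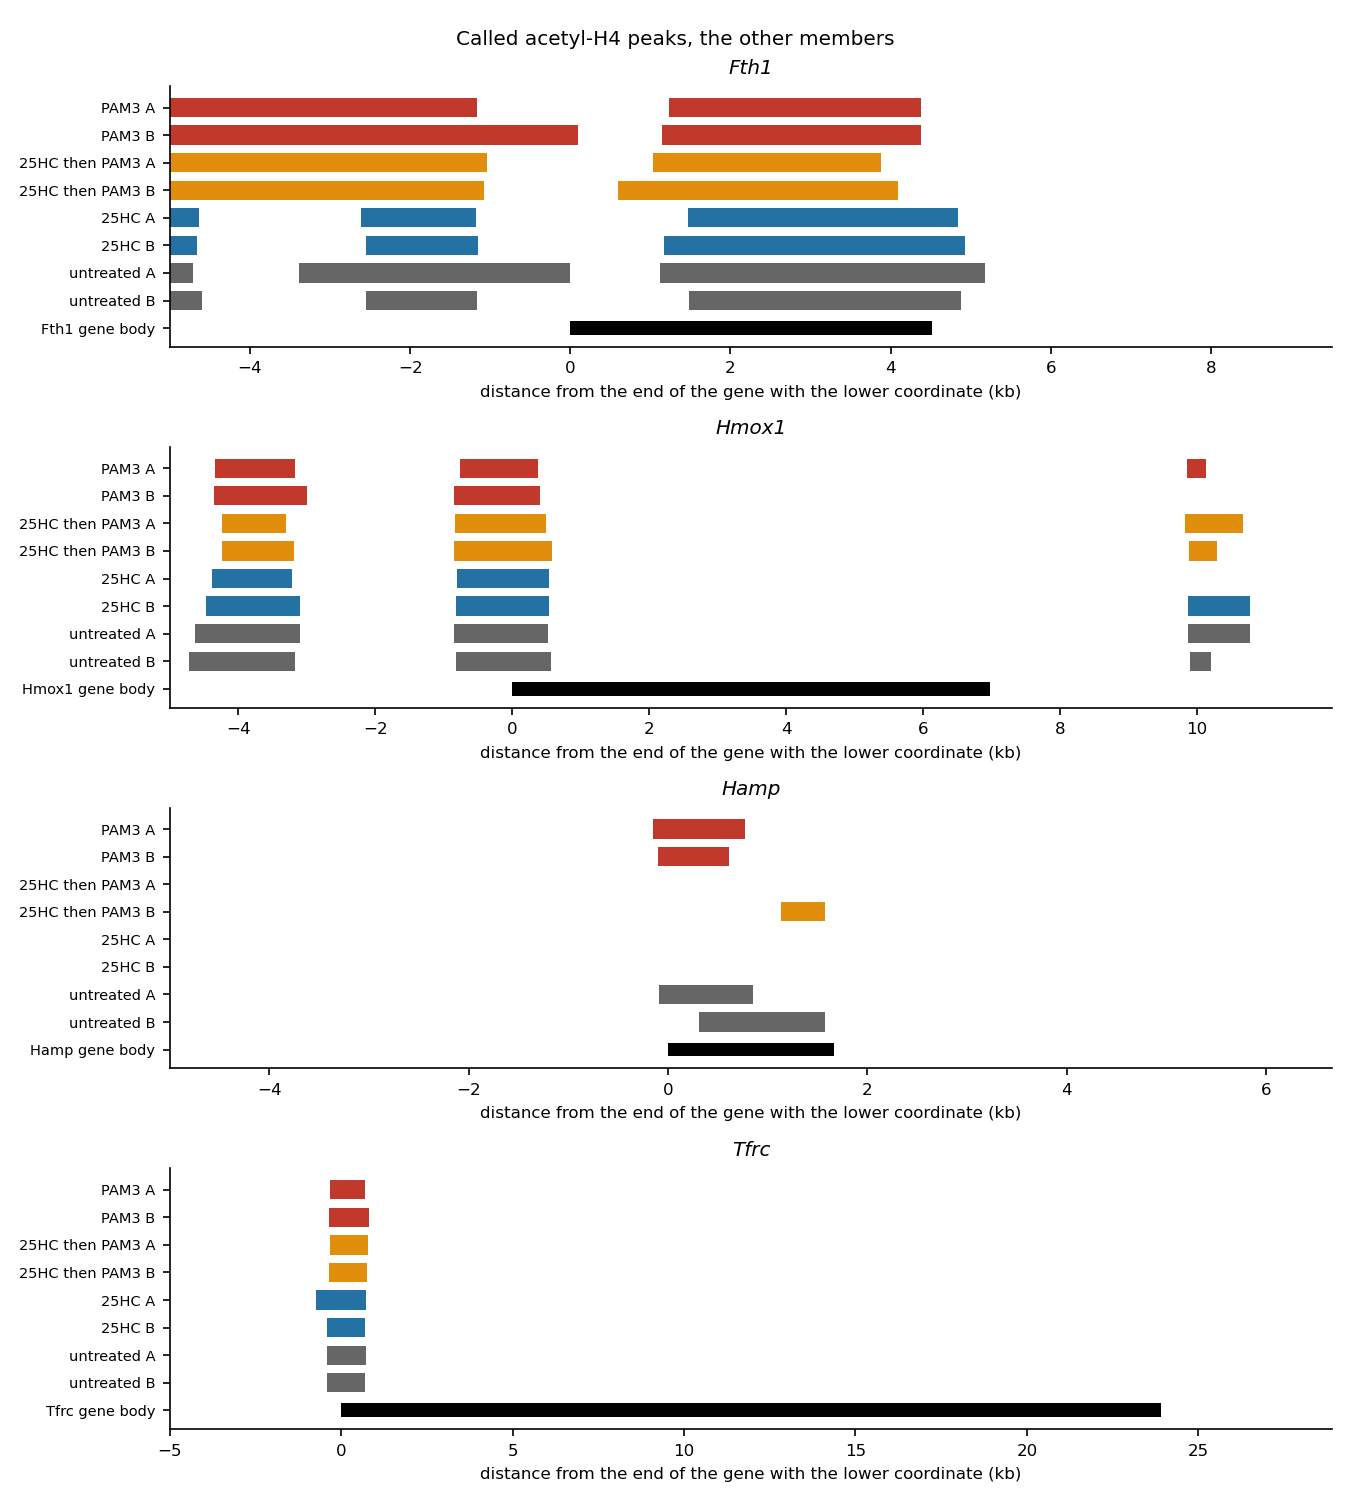
Called peaks of the 8 libraries in the windows of Fth1, Hmox1, Hamp and Tfrc, drawn against the distance from the gene's lower-coordinate end in kb, with the gene body in black. The regions over Tfrc and at the lower-coordinate end of Hmox1 are present in all 8 libraries, the gap before Fth1 is filled in the 4 libraries with PAM3, and Hamp has a peak in 1 of the 4 libraries with 25HC.

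PAM3 against untreated cells asks what the lipopeptide, with its time, does in macrophages given no oxysterol. Called length rose in the window of Lcn2 and fell in that of Slc40a1, while the other 6 genes did not pass. Much of the Slc40a1 difference lay past the gene's lower-coordinate end, outside the gene. Lcn2 averaged 3888 ± 308 bp in PAM3 cells and 1342 ± 6.36 bp in untreated cells (SD, n = 2 each), a log2 change of 1.30 (SE 0.10, adjusted p = 0.0117 with limma and Benjamini-Hochberg adjustment over all 14586 genes tested). By p, Lcn2 ranked 14 of 14586. Slc40a1 averaged 1143 ± 163 bp in PAM3 cells and 4215 ± 1643 bp in untreated cells (SD, n = 2 each), a log2 change of −1.43 (SE 0.26, limma adjusted p = 0.0474). Thus 2 of 8 genes passed, 1 in each direction, against 3.85% of all genes tested (1.89% higher, 1.97% lower). The median log2 change was −0.10 over the 8 genes and −0.01 over all genes. Of the rest, Slc11a1 came nearest with 0.50 (adjusted p = 0.0929, and 0.0295 at 1 kb), followed by Slc11a2 with −0.38 (0.357), Hmox1 with −0.34 (0.371), Fth1 with 0.30 (0.432), Hamp with −0.23 (0.822) and Tfrc with 0.03 (0.961), all adjusted p from limma. With the mouse as a block, the adjusted p of Slc40a1 was 0.0528, so its call ended, as it did at 1 kb on either side (log2 −0.72, adjusted p = 0.262), without median subtraction (0.0605), with 2000 bp added (log2 −0.93, 0.0564), with equal covered length (0.618), with the strongest peaks (0.440) and in every fit that left out 1 library except that without untreated B (0.0368, up to 0.140 in the others). Lcn2 had a limma adjusted p of 0.0414 with the block. Its log2 change was 2.25 with 1 kb and 0.72 with 10 kb on either side and 0.85 with 2000 bp added. It did not pass with peaks cut to the same covered length (log2 1.26, limma adjusted p = 0.0993). Nor did it pass with the strongest peaks alone, those with −log10 q of 5 or more (log2 2.23, limma adjusted p = 0.436). All 4 peaks over the start of Lcn2 met that cut, at −log10 q of 6.97 to 17.6. The peaks at the end of 1110008P14Rik in PAM3 B (3.52), 25HC then PAM3 A (2.05) and untreated B (4.93) did not.

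25HC then PAM3 against 25HC puts this question to cells that had received the oxysterol first. Lcn2 rose and Slc40a1 fell here too, and no other gene of the set passed. Lcn2 averaged 4030 ± 21.2 bp in 25HC then PAM3 cells and 1243 ± 146 bp in 25HC cells (SD, n = 2 each), a log2 change of 1.36 (SE 0.10, limma adjusted p = 0.00748, and 0.0323 with a block for the mouse). Slc40a1 averaged 1366 ± 173 bp in 25HC then PAM3 cells and 4175 ± 676 bp in 25HC cells (SD, n = 2 each), a log2 change of −1.34 (SE 0.26, limma adjusted p = 0.0488). The 2 calls among 8 genes compare with 5.03% of all genes tested (2.73% higher, 2.3% lower). The median log2 change was 0.14 over the 8 genes and −0.02 over all. Slc11a2 had a log2 change of −0.94 (adjusted p = 0.0528, and 0.0364 at 10 kb) and Slc11a1 one of 0.32 (0.208), while Fth1 had 0.36 (0.320), Tfrc −0.18 (0.612, but −1.09 and 0.0353 at 10 kb) and Hmox1 −0.04 (0.947), all adjusted p from limma. Hamp, listed at 0 in both 25HC libraries, had an adjusted p of 0.613. The Slc40a1 call ended with the mouse as a block (adjusted p = 0.0506) and in each fit that left out a PAM3, 25HC or 25HC then PAM3 library (up to 0.177), without median subtraction (0.0732), with no filter (0.0510) with 2000 bp added (log2 −0.89, 0.0566), with equal covered length (0.575) and with the strongest peaks (log2 −2.07, 0.328), and at 1 kb on either side its log2 change was −0.11. The Lcn2 change was 2.26 at 1 kb, 0.80 at 10 kb and 0.88 with 2000 bp added. Its call ended with the same covered length (log2 1.44, limma adjusted p = 0.0668) and with the strongest peaks alone (log2 1.31, 0.595).

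**Figure D4:**
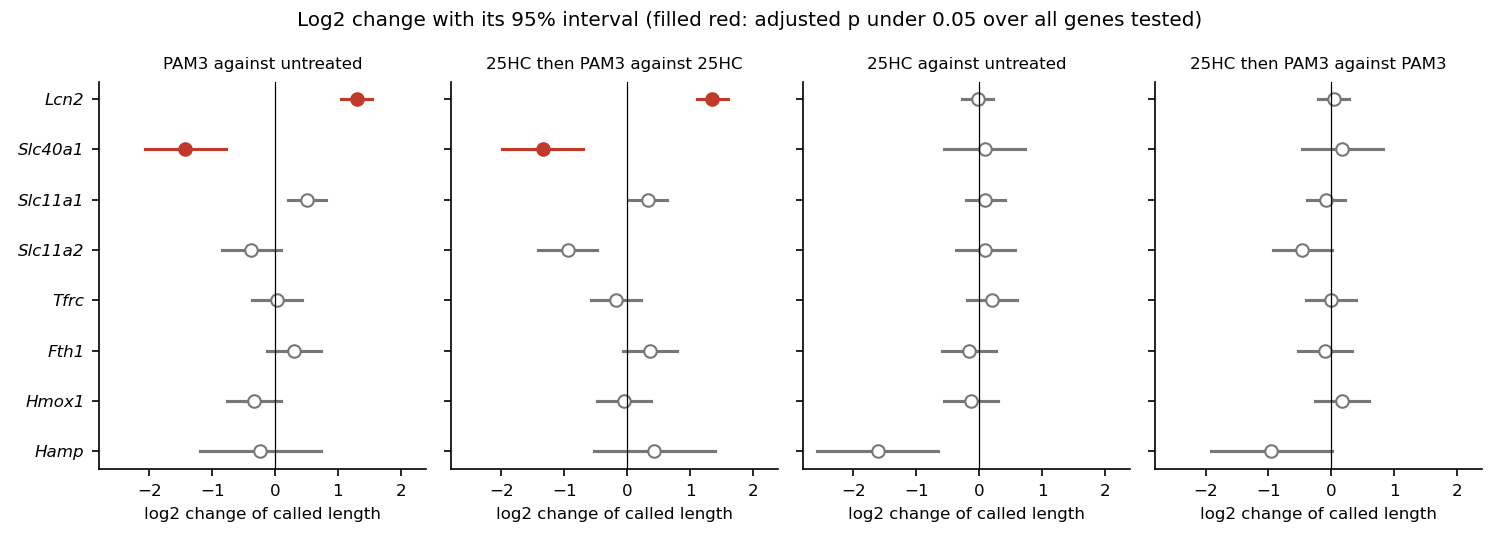
Log2 change of called length (x axis, points) with its 95% interval (lines) for the 8 genes in 4 comparisons, filled red where the limma adjusted p over all genes tested was under 0.05. Lcn2 is at 1.30 and 1.36 and Slc40a1 at −1.43 and −1.34 in the comparisons that add PAM3, and no gene is filled in the comparisons that add 25HC. Hamp has no peak in either 25HC library, so the 500 bp added before the log sets the size of its points there.

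Averaged over cells with and without 25HC, the 4 libraries with PAM3 differed from the 4 without at 4 of the 8 genes: Lcn2 and Slc11a1 rose, and Slc40a1 and Slc11a2 fell. Among all genes tested, 11.8% passed this comparison (5.94% higher, 5.88% lower). Lcn2 averaged 3959 ± 196 bp with PAM3 and 1292 ± 102 bp without (SD, n = 4 each), a log2 change of 1.33 (SE 0.07, limma adjusted p = 0.00261). Slc40a1 averaged 1254 ± 188 bp with PAM3 and 4195 ± 1026 bp without (SD, n = 4 each), a log2 change of −1.39 (SE 0.18, limma adjusted p = 0.0116). Both kept their calls with the mouse as a block and without any 1 library. The Lcn2 change was 2.26 at 1 kb, 0.76 at 10 kb and 0.86 with 2000 bp added, and that of Slc40a1 −0.91 with 2000 bp added. Restricted to the strongest peaks neither passed (limma, log2 1.77 and adjusted p = 0.256 for Lcn2, log2 −2.06 and 0.203 for Slc40a1). Slc40a1 also missed the threshold with equal covered length (0.352) and at 1 kb (log2 −0.41, 0.271). Slc11a1 averaged 6740 ± 647 bp with PAM3 and 4981 ± 545 bp without (SD, n = 4 each), a log2 change of 0.41 (SE 0.09, limma adjusted p = 0.0370). Slc11a2 averaged 3682 ± 990 bp with PAM3 and 6082 ± 853 bp without (SD, n = 4 each), a log2 change of −0.66 (SE 0.13, limma adjusted p = 0.0340). The Slc11a1 call ended with the block (adjusted p = 0.0672), without each of the 8 libraries in turn (0.0546 to 0.103), at 10 kb (log2 0.19, 0.311) and with the strongest peaks (log2 0.16, 0.880), and its log2 change was 0.61 at 1 kb. The Slc11a2 call ended with the block (0.0546) and in every fit without 1 library except that without untreated A (up to 0.107), and both calls ended without median subtraction (0.101 for Slc11a1 and 0.0597 for Slc11a2) and with equal covered length (0.189 for Slc11a1, and 0.382 with a log2 change of −1.38 for Slc11a2), and Slc11a2 had an adjusted p of 0.673 with the strongest peaks.

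The other 4 genes had average log2 changes of 0.33 for Fth1 (adjusted p = 0.158), −0.19 for Hmox1 (0.393), −0.07 for Tfrc (0.734) and 0.10 for Hamp (0.863) in limma. Fth1 passed without untreated A (0.0427), the library that lay apart from the others without PAM3. With 10 kb on either side Tfrc passed (log2 −0.56, limma adjusted p = 0.0475), at 2905 and 2271 bp in PAM3 cells, 1096 and 1106 bp in 25HC then PAM3 cells, 2799 and 2897 bp in 25HC cells and 2855 and 2659 bp in untreated cells. In this wider Tfrc window only the 25HC then PAM3 libraries stood low. In two-sided exact permutation tests on called length, 4 libraries against 4, Lcn2, Slc40a1, Slc11a1 and Slc11a2 each gave p = 0.0286, the smallest that the 70 arrangements allow. The called length of 16.8% of all genes tested likewise did not overlap between libraries with and without PAM3 (7.12% higher, 9.66% lower). The exact p was 0.114 for Fth1, 0.171 for Hmox1, 0.343 for Tfrc and 0.914 for Hamp.

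Markers of other cells that also make or handle these proteins were set beside these changes. Neutrophils carry much lipocalin 2, and the summed called length of 10 neutrophil markers was 6308 to 7666 bp in PAM3 cells, 7652 to 8351 bp in 25HC then PAM3 cells, 7670 to 8761 bp in 25HC cells and 8746 to 8811 bp in untreated cells. Of these, Elane was lower with PAM3 (807 to 1751 bp with PAM3, 2705 to 3524 bp without), as was Ltf (2156 to 3959 bp with PAM3, 4372 to 5022 bp without), whereas S100a8 had 463 to 1859 bp with PAM3 and 490 to 593 bp without. Ltf is in this list and in the wider iron list. S100a9, Ly6g, Ngp, Retnlg and Cxcr2 were at 0 in all 8 libraries. Within that list Camp followed Lcn2, with 1518 and 1706 bp in PAM3 cells, 1890 and 2133 bp in 25HC then PAM3 cells and 0 in the 4 libraries without PAM3. The part of these markers in the Lcn2 rise was not tested. The 4 dendritic cell markers summed to 12479 to 13245 bp in PAM3 cells, 10607 to 14454 bp in 25HC then PAM3 cells, 17640 to 21210 bp in 25HC cells and 23366 to 25491 bp in untreated cells, with none at 0 in both libraries of a group. Their sum was thus lower with PAM3, as Slc40a1 and Slc11a2 were. Clec9a (1094 to 2931 bp with PAM3, 3485 to 5199 bp without) and Siglech (325 to 1854 bp with PAM3, 3559 to 5193 bp without) were lower. Zbtb46 (6528 to 10264 bp with PAM3, 7955 to 11154 bp without) and Flt3 (0 to 3141 bp with PAM3, 2641 to 5597 bp without) overlapped. The part of these markers in the Slc40a1 and Slc11a2 changes was not tested. The 7 erythroid markers, which bear on haem and transferrin iron, summed to 6284 to 7132 bp with PAM3 and 6077 to 9051 bp without. The 5 lymphocyte markers summed to 3150 to 5227 bp with PAM3 and 4210 to 4787 bp without, with Cd3e and Cd8a at 0 throughout.

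25HC against untreated cells asks what the oxysterol does alone. None of the 8 genes passed (limma, 1 at an unadjusted p under 0.05, which was Hamp). Of all genes tested 0.0343% passed and 4.65% had an unadjusted p under 0.05. Hamp reached the 500 bp minimum only through the libraries without 25HC, so this count of 1 is a description and is not to be read against that share. Lcn2 had a log2 change of −0.02 with a 95% interval of −0.27 to 0.23, and Slc40a1 one of 0.09 with an interval of −0.56 to 0.73. For Slc11a1 and Slc11a2 the values were 0.10 and 0.10, for Tfrc 0.20, for Fth1 −0.17 and for Hmox1 −0.13 (limma adjusted p = 1 for each). In 25HC and untreated cells all of the called length around Lcn2 lay in the region at the end of 1110008P14Rik, and the start of Lcn2 had no peak. The interval of Lcn2 thus describes that neighbouring region and sets no bound on a change at the start of Lcn2.

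25HC then PAM3 against PAM3 asks whether the oxysterol altered acetylation in stimulated cells. None of the 8 genes passed (limma, 0 at an unadjusted p under 0.05), while 1.3% of all genes tested passed and 14.9% had an unadjusted p under 0.05. The value for Lcn2 was 0.04 with a 95% interval of −0.21 to 0.29 (limma adjusted p = 0.934). Slc11a2 had 3254 and 2772 bp in 25HC then PAM3 cells and 3630 and 5070 bp in PAM3 cells, a log2 change of −0.46 (limma adjusted p = 0.345). Over both backgrounds, the average effect of 25HC passed for none of the 8 (limma, 1 at an unadjusted p under 0.05), while 0.0686% of all genes tested passed and 11.4% had an unadjusted p under 0.05. That 1 was again Hamp (limma adjusted p = 0.165), kept by the libraries without 25HC, so the count is not to be read against that share.

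Whether 25HC changed the response to PAM3 was tested as an interaction. The test passed for none of the 8 genes (limma, 0 at an unadjusted p under 0.05) and for 0% of all genes tested, of which 9.85% had an unadjusted p under 0.05. The Lcn2 response with 25HC minus that without was 0.06, with a 95% interval of −0.29 to 0.41 (limma adjusted p = 0.936). For Slc40a1 it was 0.09, with an interval of −0.82 to 0.999 (limma adjusted p = 0.970), which leaves room for a sizeable difference either way. Slc11a2 had the smallest adjusted p of the set, with a value of −0.56 and an interval of −1.23 to 0.10 (limma adjusted p = 0.591).

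A wider list of 62 genes of iron storage, transport, haem synthesis and breakdown, iron sensing and siderophore uptake was matched by symbol, and 55 had enough called length to be tested. In PAM3 against untreated cells, 1 rose, 1 fell and 53 did not pass, against the 3.85% given above. Hif1a, the oxygen- and iron-sensitive transcription factor subunit, had 6089 and 6180 bp in PAM3 cells and 3497 and 3351 bp in untreated cells (log2 0.80, limma adjusted p = 0.0291, and 0.0652 with a block for the mouse). Cd163, the scavenger receptor for haemoglobin bound to haptoglobin, had 1995 and 2052 bp in PAM3 cells and 3925 and 3868 bp in untreated cells (log2 −0.75, limma adjusted p = 0.0380, or 0.0589 with the block). The Hif1a call held only without PAM3 A or B (0.0452 and 0.0463) and the Cd163 call only without PAM3 A (0.0425) among the fits that left out 1 library, with adjusted p up to 0.108 and 0.144 in the others. Neither passed with equal covered length (0.673 for Hif1a and 0.127 for Cd163) or with the strongest peaks. In 25HC then PAM3 against 25HC, Hif1a rose and the other 54 did not pass, beside 5.03% of all genes. A single call is too few to be read against that share. Hif1a had 6602 and 7365 bp in 25HC then PAM3 cells and 2762 and 3275 bp in 25HC cells (log2 1.07, limma adjusted p = 0.0131, or 0.0395 with the block), and lost its call without 25HC A or B (up to 0.0607).

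Over the average effect of PAM3, 3 of the 55 rose and 2 fell, beside 11.8% of all genes tested. With so few calls, no difference from that share is read. The median log2 change was 0.03 over the list and −0.01 over all genes. Hif1a rose by 0.94 (limma adjusted p = 0.00428). Fech, the ferrochelatase that inserts iron into haem, had 1697 and 2945 bp in PAM3 cells, 2838 and 3586 bp in 25HC then PAM3 cells, 1741 and 1514 bp in 25HC cells and 1761 and 1693 bp in untreated cells (log2 0.56, limma adjusted p = 0.0437). PAM3 A lay within the range of the libraries without PAM3, and the other 3 with PAM3 lay above it. Iscu, the scaffold on which iron-sulphur clusters are built, rose by 0.34 (limma adjusted p = 0.0305), at 3267 to 3881 bp with PAM3 and 2568 to 2901 bp without. Epas1, the HIF-2α gene, had 1966 and 1840 bp in PAM3 cells, 1356 and 1232 bp in 25HC then PAM3 cells, 2418 and 3685 bp in 25HC cells and 4717 and 3964 bp in untreated cells (log2 −0.97, limma adjusted p = 0.0144). The libraries with PAM3 were the 4 lowest for Epas1 and the 4 highest for Hif1a. Cd163 had a log2 change of −0.64 (limma adjusted p = 0.0118). With equal covered length Hif1a (0.150), Epas1 (0.0655) and Cd163 (0.0700) did not pass, nor did they with the strongest peaks alone, where the Hif1a change was 0.098 (0.966), that of Epas1 −0.51 (0.666) and that of Cd163 −0.81 (0.636). Fech and Iscu did not pass with equal covered length either (0.303 and 0.308). With the mouse as a block Fech (0.0708) and Iscu (0.0571) no longer passed; Fech also lost its call without any library other than PAM3 A (up to 0.128) and Iscu without any other than PAM3 A or B (up to 0.0915).

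**Figure D5:**
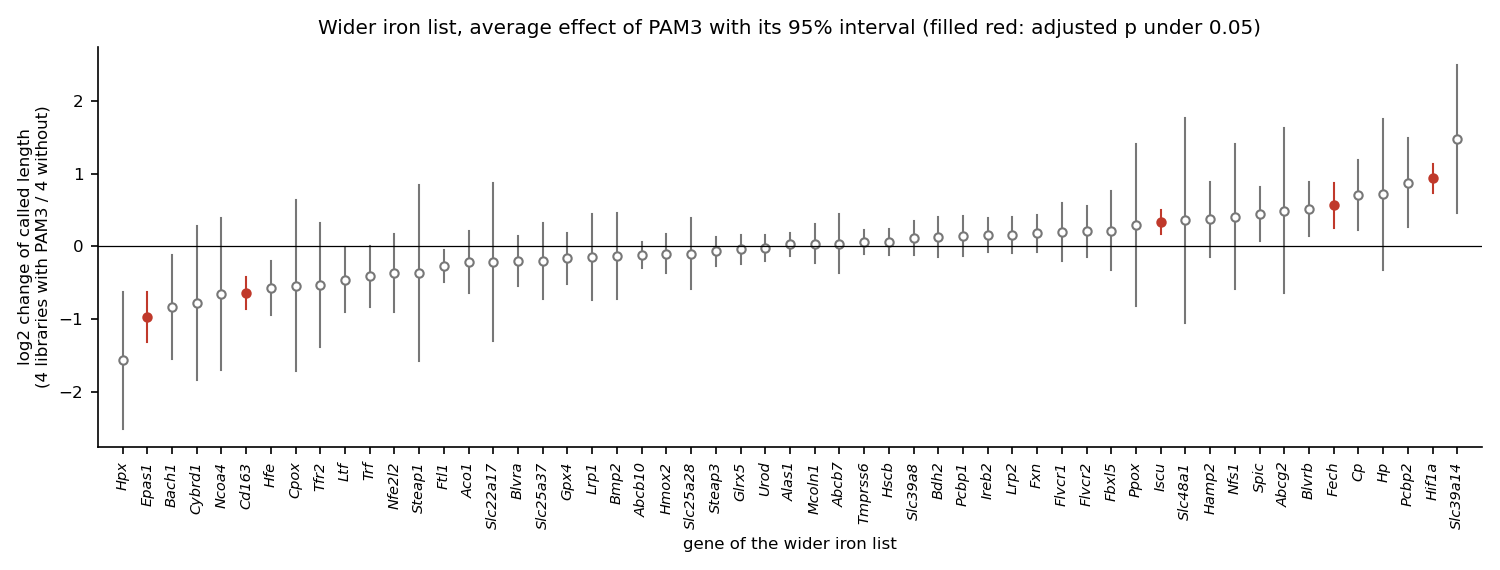
Average log2 change of called length (y axis, the 4 libraries with PAM3 over the 4 without) with its 95% interval for the 55 tested genes of the wider iron list, ordered by value and filled red where the limma adjusted p was under 0.05. Hif1a, Fech and Iscu are filled above 0 and Epas1 and Cd163 below it, and most intervals cross 0.

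None of the 55 passed in the comparisons of 25HC or in the interaction (limma, with 3 at an unadjusted p under 0.05 for 25HC against untreated, 7 for 25HC then PAM3 against PAM3, 4 for the interaction and 5 for the average effect of 25HC). The shares of all genes at that unadjusted p were 4.65%, 14.9%, 9.85% and 11.4% in the same order. The smallest p in 25HC against untreated belonged to Slc39a14, a zinc and iron importer, with a log2 change of 1.93, Slc22a17, a receptor for lipocalin 2, with −1.78, and Slc48a1, a haem exporter of the lysosome, with −2.02 (limma adjusted p = 0.865, 0.992 and 1). In 25HC then PAM3 against PAM3 it belonged to Spic, a factor of haem-recycling macrophages, with 0.80, Hp, the haptoglobin gene, with −2.19, and Hmox2, the constitutive haem oxygenase, with 0.52 (limma adjusted p = 0.160, 0.165 and 0.197). In the interaction it belonged to Spic with 0.96, Slc25a28, a mitochondrial iron importer, with 1.10, and Slc39a14 with −2.25 (limma adjusted p = 0.378, 0.456 and 0.459). For the average effect of 25HC it belonged to Slc22a17 with −1.68, Hmox2 with 0.39 and Hp with −1.35 (limma adjusted p = 0.228, 0.243 and 0.299). Slc48a1 had no peak in 25HC B, Slc22a17 none in 25HC B and 25HC then PAM3 B, and Hp none in 25HC then PAM3 B, 25HC A and untreated A, so single libraries set much of these values. With 25HC, Slc22a17 had 0 to 892 bp and Hp 0 to 223 bp, and both reached the mean of 500 bp only through libraries without 25HC. Their values in the comparisons of 25HC, and their places in these counts, are a description and are not to be read against the shares.

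The genes whose centred log2 values over the 8 libraries were closest to those of Lcn2 were Fpr1, Hsd11b1, St7, Mrpl39 and Yipf4, with root mean square differences of 0.11 to 0.13. Fpr1, the receptor for bacterial formyl peptides, was the closest, with 9267 and 11073 bp in PAM3 cells, 10441 and 10349 bp in 25HC then PAM3 cells, 4335 and 4411 bp in 25HC cells and 4651 and 4117 bp in untreated cells. Hsd11b1, which regenerates active glucocorticoid, had 2835 to 3361 bp with PAM3 and 625 to 959 bp without. As a description over 8 libraries that share 2 mice, Pearson's r with Lcn2 ran from 0.980 for Yipf4 to 0.994 for Fpr1. These genes were picked for their closeness to Lcn2 over the same 8 libraries, so a high r follows from that choice.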

How the data were processed

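Acetyl-H4 ChIP-seq of bone marrow derived macrophages was deposited as 1 broad peak list per library, 8 in all. The submitters' processing notes name GSNAP as aligner, GRCm38 (mm10) as build and MACS2 2.1.0 as peak caller. The deposited start and end of each peak were used. The authors' deposited fold ratio and −log10 q describe single peaks, and the deposited score, 10 times −log10 q in 99.994% to 100.0% of peaks, and −log10 p were only inspected. Whether a control library was used is not given in the sources used here. With no read counts, depth is unknown.

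Called bp were summed per gene window (RefSeq gene bodies, GRCm38.p6, and 5 kb beyond each end). The 14586 genes with a mean of at least 500 bp were tested, and all 8 genes of the report were among them. Values were log2 of bp plus 500, minus the library median, so changes of short windows are understated. Neighbouring windows can share peaks.

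A single limma 3.58.1 fit (R 4.3.3) took in the 4 groups (trend and robust, 4 residual degrees of freedom) with Benjamini-Hochberg adjustment over all genes tested and a threshold of 0.05. The fit was tested on simulated data. Exact permutation tests used called bp with no adjustment over the 8 genes. The labels give the mouse, A or B, of each library, so same-letter libraries are paired. Correlations of their departures from group means were −0.0171 to 0.0304, and a fit with the mouse as a block is an alternative. Alternatives also changed the window, the added bp, the filter, the median subtraction, the covered length and the peak threshold, and left out each library.

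The genes, the wider iron list, the markers and the tests were chosen with earlier results of these data known. From the wider list the text names every gene that passed in any comparison, or the 3 smallest p where none passed. For Lcn2 it names the 5 most similar genes outside its window, skipping predicted and receptor genes of smell and pheromones.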

Additional observations from a re-analysis of the deposited data

Results flagged for a closer look

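Single libraries stood apart from the other 3 in sets of 4 libraries pooled over the study's groups, where the gap to the nearest library took up most of the range. About 1 in 20 such sets is picked out by chance. Among the 4 libraries without PAM3, 25HC A was low for Lcn2 at 1140 bp, 25HC A was high for Tfrc at 1469 bp and untreated A was high for Fth1 at 7732 bp. Among the 4 libraries with 25HC, 25HC A was again the high one for Tfrc at 1469 bp, and 25HC then PAM3 B was the only one with a Hamp peak, at 440 bp.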

How the results depend on the processing

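The number of the 8 genes passing was 2 for PAM3 against untreated, 2 for 25HC then PAM3 against 25HC and 4 for the average effect of PAM3. With the mouse as a replicate block, which pairs libraries of the same mouse, these counts were 1, 1 and 2, and no gene of the set gained a call. Restricted to peaks with −log10 q from 5 upwards, they were 0, 0 and 0 (limma, on 0 calls over all genes), with every library cut to the same covered length 0, 0 and 1, without median subtraction 1, 1 and 2, and with 2000 bp added 1, 1 and 4. For 25HC then PAM3 against 25HC the count was 1 with no filter, 1 with 1 kb on either side and 4 with 10 kb (Lcn2, Slc40a1, Slc11a2 and Tfrc). For the average effect of PAM3 at 10 kb, Tfrc passed in place of Slc11a1. Without 1 library they ran from 1 to 2, 1 to 2 and 2 to 4. The count at the smallest exact p, 4 in the reported windows, was 2 with the stronger peaks and 3 to 4 without 1 library. The counts of 0 in the other comparisons stayed 0 under every alternative run (limma). The cause of these shifts was not tested.

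With the stronger peaks alone the sign turned for Fech (average −0.084), Hif1a (PAM3 against untreated, −0.71), Slc11a1 (PAM3 against untreated, −0.32) and the interactions of Lcn2 (−0.92) and Slc40a1 (−0.030). It also turned for the Slc40a1 interaction with the same covered length (−0.36) and without 1 library (−0.26 to 0.44), for Fth1 at 1 kb (average −0.15), and for Lcn2 in 25HC then PAM3 against PAM3 without 1 library (−0.0073 to 0.086) and Tfrc in the average effect of PAM3 without 1 library (−0.16 to 0.015). Of the 56 log2 changes of the 8 genes in 7 comparisons, 35 turned sign under at least 1 alternative, and none of these had passed. Over all genes the counts ran from 0 to 872 against 562 reported for PAM3 against untreated (168 with the block), from 0 to 891 against 733 for 25HC then PAM3 against 25HC (281 with the block), and from 0 to 1948 against 1724 for the average effect of PAM3. They ran from 0 to 97 against 5 for 25HC against untreated, 0 to 432 against 190 for 25HC then PAM3 against PAM3, 0 to 192 against 0 for the interaction, and 0 to 240 against 10 for the average effect of 25HC. No read depth was available to set a limit of detection.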
